A study of Homo sapiens with 4 samples.

Results

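The formyl peptide receptor cluster is a row of 3 neighbouring genes, FPR1, FPR2 and FPR3, on human chromosome 19 (hg19). Every called peak of open chromatin was taken that overlapped the window from 50 kb before the first to 50 kb after the last of these genes, chr19:52198425-52379443, by at least 1 bp. The window is 181019 bp long and held 17 of the 195019 peaks of the 4 libraries, which merged into 7 of 78063 regions. Accessible chromatin was mapped by ATAC-seq, where a transposase, Tn5, inserts adapters into DNA free of nucleosomes. The cells were HL-60, a suspension line from a human promyelocytic leukemia that can be driven to granulocyte-like cells. The ATRA group received all-trans retinoic acid at 1 µM for 4 days and the control group the same volume of ethanol, the solvent. Medium and agent were renewed at day 2 in both groups, and each group had 2 libraries, which the study calls independent biological replicates. The study asked how the differentiation of these cells goes along with changes of chromatin, and the comparison here is which sites around the receptor genes were open with and without ATRA. The cells are 1 line at a single time, so the data hold no normal neutrophil precursor and no time course.

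The formyl peptide receptors are G-protein-coupled receptors of neutrophils, monocytes and macrophages. Bacteria and mitochondria begin their proteins with N-formyl methionine, and peptides that carry this group draw neutrophils toward infection or damaged tissue. Binding releases Gi proteins, whose beta-gamma subunits switch on phospholipase C-beta and phosphoinositide 3-kinase gamma, and these lead to calcium release, migration and the oxidative burst. FPR1 is the high-affinity receptor for formyl peptides. FPR2 takes a wide range of ligands, among them annexin A1, serum amyloid A and the cathelicidin peptide LL-37. FPR3 responds poorly to formyl peptides and is known mainly from monocytes, macrophages and dendritic cells.

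The lists held 43494 peaks in ATRA replicate 1, 63541 in ATRA replicate 2, 42081 in control replicate 1 and 45903 in control replicate 2, so ATRA replicate 2 stood apart with the longest list and the widest peaks (median 416 bp against 291 to 328 bp in the other lists). The number of reads behind each list is unknown. Of 8 promoters of myeloid genes, 3 to 5 held a peak in each library, with CEBPE, SPI1 and CD33 open in all 4 and ELANE and AZU1 in none. Erythroid promoters held none in any library (0 of 3), lymphoid ones 0 or 1 of 4, and epithelial or liver ones 0 or 1 of 3. Of 5 genes that retinoic acid induces in many cells, RARB and DHRS3 held a promoter peak in both ATRA libraries and in neither control library, while CYP26A1, CD38 and TGM2 held none in any library.

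A peak was called convincing when both libraries of a group had it, and specific when no convincing peak of the other group overlapped it. By these rules, taken from the study's methods and applied anew to the deposited lists, so that totals over all lists need not equal the study's own, the window held 5 ATRA-specific peaks, 0 control-specific peaks and 1 peak shared by the groups. In all lists, ATRA-specific peaks made up 37.3% of the convincing ATRA peaks, and control-specific peaks made up 23.7% of the convincing control peaks. The window had only 1 convincing control peak, so the 0 control-specific peaks are 0 of 1. Regions are numbered 1 to 7 along the chromosome. The ATRA-specific ones are regions 2, 3, 4, 5 and 7, and the middle 200 bp of each is shown here because the rule sets them apart. Region 5 is among them although control replicate 2 also had a peak there. The sequences are read on the plus strand of hg19, with capitals for a match to a transcription factor motif, as explained below them.
region 2, chr19:52267707-52267906, in the first intron of FPR2: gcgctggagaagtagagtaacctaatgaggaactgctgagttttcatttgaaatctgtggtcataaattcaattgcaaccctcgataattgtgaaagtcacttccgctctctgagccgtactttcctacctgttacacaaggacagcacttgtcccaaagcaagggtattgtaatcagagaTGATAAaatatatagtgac
region 3, chr19:52274691-52274890, just past the end of FPR2: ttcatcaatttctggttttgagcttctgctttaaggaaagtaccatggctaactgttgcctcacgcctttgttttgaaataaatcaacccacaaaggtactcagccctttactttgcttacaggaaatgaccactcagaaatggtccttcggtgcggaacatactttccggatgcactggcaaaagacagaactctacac
region 4, chr19:52281221-52281420, between FPR2 and FPR3: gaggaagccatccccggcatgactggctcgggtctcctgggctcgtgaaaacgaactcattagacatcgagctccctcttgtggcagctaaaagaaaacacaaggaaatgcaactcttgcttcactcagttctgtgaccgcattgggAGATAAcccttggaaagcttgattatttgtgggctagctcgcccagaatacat
region 5, chr19:52286695-52286894, between FPR2 and FPR3: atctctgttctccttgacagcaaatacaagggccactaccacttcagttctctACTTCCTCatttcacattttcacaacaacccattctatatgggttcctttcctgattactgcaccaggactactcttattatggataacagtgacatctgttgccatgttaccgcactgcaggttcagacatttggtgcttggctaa
region 7, chr19:52333628-52333827, past the end of FPR3: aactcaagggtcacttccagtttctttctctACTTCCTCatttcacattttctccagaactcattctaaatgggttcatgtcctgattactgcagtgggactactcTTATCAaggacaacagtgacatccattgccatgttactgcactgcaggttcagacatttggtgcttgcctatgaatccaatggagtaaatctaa

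The motifs were searched on both strands in the middle 200 bp of each of the 78063 regions. PU.1, the master regulator of myeloid cells, was searched as GAGGAAGT, which 8.94% of all regions held, and its reverse complement ACTTCCTC lies in regions 5 and 7. GATA was searched as AGATAA or TGATAA, present in 18.8% of all regions, and lies in regions 2, 4 and 7, in region 7 on the minus strand as TTATCA. Among all regions with peaks in both ATRA libraries and in neither control library, 13.3% held the PU.1 letters and 14.3% the GATA letters. AP-1 (TGAGTCA, 5.72% of all regions) was matched in region 6 only. No region of the window matched RUNX (AACCACA, 8.55%), CEBP (TTGCNNAA, 12.3%), IRF (GAAANNGAAA, 3.4%), CTCF (5.87%) or the direct repeat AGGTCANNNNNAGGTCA that retinoic acid receptors bind (0.0128%). The PU.1 letters hold the GGAA core that other ETS factors share, and a match is a string of letters, not a bound factor. Variant letters and other spacings were not searched, so a missing match does not show that a binding site is absent. The direct repeat was so rare in all regions that its absence from the window says little. Regions 1 and 3 matched none of the motifs. The GC content of regions 2 to 7 was 37.5% to 50.0%, against a median of 47.5% over all regions (quartiles 41.5% and 55.5%). Region 1 stood apart with 74.0% and 27 CpG dinucleotides in 200 bp, where regions 2 to 7 had 0 to 7.

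The 3 genes differ in layout. FPR1 (ENSG00000171051.10_10) lies on the minus strand at chr19:52249026-52255131 by its canonical transcript, and FPR2 (ENSG00000171049.9_9) on the plus strand at chr19:52264433-52273784, so that their starts face away from each other 9302 bp apart. FPR3 (ENSG00000187474.5_6) follows on the plus strand at chr19:52298410-52329443, its start 33977 bp beyond that of FPR2. Each canonical transcript has 2 exons, and that of FPR3 spans 31034 bp. HAS1, a hyaluronan synthase, and SPACA6, a sperm membrane protein, lie on the FPR1 side, and the zinc finger gene ZNF577 lies on the FPR3 side.

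No receptor gene had a peak at its start. A peak from 1 kb before to 100 bp after a start was absent from all 4 libraries at all 4 annotated starts of FPR1, all 6 of FPR2, both of FPR3 and all 5 of HAS1. An absent peak means that the signal did not pass the caller's threshold, not that the site was closed. The peak nearest to the canonical start of FPR1 was 12.5 kb away in both ATRA libraries, 47.4 kb in control replicate 1 and 31.5 kb in control replicate 2. For FPR2 it was 3.2 kb away in both ATRA libraries, 56.7 kb in control replicate 1 and 22.2 kb in control replicate 2. For FPR3 it was 11.5 kb in ATRA replicate 1, 11.4 kb in ATRA replicate 2, 90.7 kb in control replicate 1 and 11.5 kb in control replicate 2. The open sites nearest to FPR1 and FPR2 were thus different ones in the groups, while for FPR3 both ATRA libraries and control replicate 2 shared the nearest one, region 5.

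**Figure D1:**
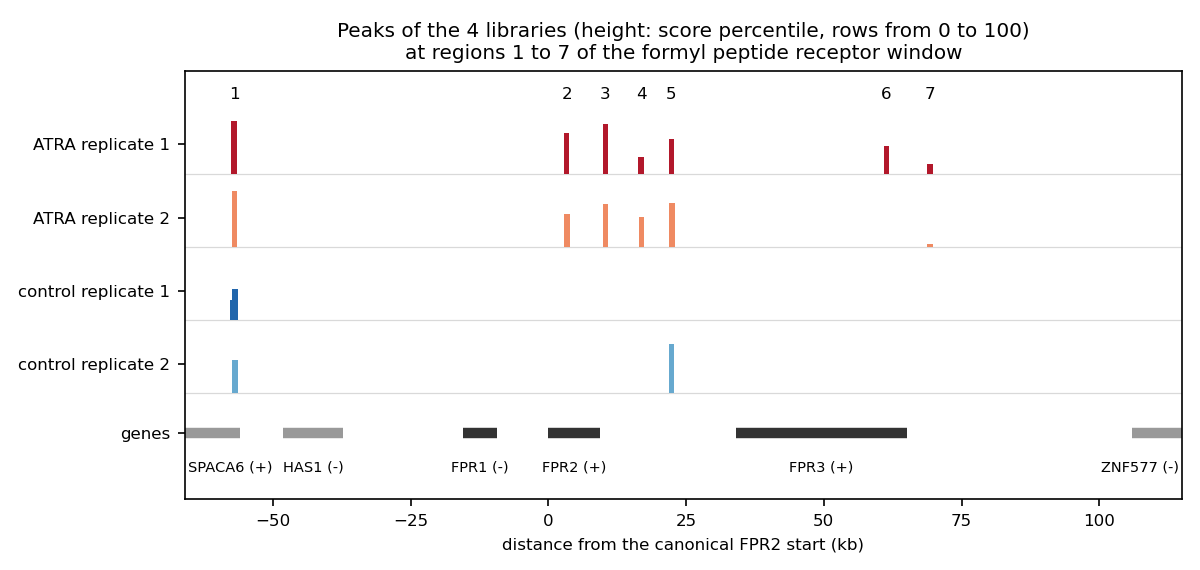
Peaks of each library along the window, as distance in kb from the canonical start of FPR2. Bar height is the score percentile of the peak within its own list from 0 to 100 above its row's base line; bars are drawn wider than the peaks, and genes show their canonical transcripts with the strand. Regions 2, 3, 4, 6 and 7 have bars only in ATRA rows, region 1 in all 4 rows, and region 5 in the ATRA rows and that of control replicate 2.

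Scores were compared as percentiles within a list, where 100 is the best peak of that library, because the scale of the deposited score is not given and the lists differ in length. Region 1, chr19:52207014-52207869, was the only region with a peak in all 4 libraries. It is 856 bp long, and its centre is 47689 bp from the start of FPR1. The centre lies in intron 7 of the canonical SPACA6 transcript and in an exon of another SPACA6 transcript. Only the centre was annotated, so the rest of the region may cover exons too. Its peak stood at percentile 90.3 in ATRA replicate 1 and 95.4 in ATRA replicate 2. In control replicate 1 it was split into 2 peaks, at percentiles 52.4 and 34.6, and in control replicate 2 it stood at 55.8. Its width was 750 bp and 796 bp in the ATRA libraries, 338 bp for the better of the peaks of control replicate 1 and 450 bp in control replicate 2. Both measures were higher in each ATRA library than in either control library. The mean percentile was 92.9 ± 3.6 with ATRA and 54.1 ± 2.42 without (SD, n = 2 each), a difference of 38.8, and the mean width was 773 ± 32.5 bp against 394 ± 79.2 bp, a difference of 379.0 bp. The exact two-sided permutation test gave p = 0.33 for each, the smallest value that 2 against 2 libraries allow, so no difference of this design can pass a threshold. These means use only the better peak of control replicate 1. With all peaks of a library in the region used, the control mean width was 506 bp. The differences were then 267.5 bp and 42.5 percentile units. Among all regions with a peak in 4 libraries, which were 30.3% of the 78063, 29.2% had both ATRA percentiles above both control percentiles and 37.4% had both ATRA widths above both control widths.

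Region 2, chr19:52267618-52267996, is 379 bp long and lies in intron 1 of FPR2, 3374 bp past the start of this gene. Its peak was 315 bp wide at percentile 68.8 in ATRA replicate 1 and 377 bp wide at percentile 56.3 in ATRA replicate 2. Neither control library had a peak there. It is the only region inside the canonical transcript of FPR1 or FPR2.

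Region 3, chr19:52274501-52275080, is 580 bp long and begins 717 bp past the end of FPR2. By the annotation it overlaps exon 2 of a long noncoding RNA on the minus strand, ENSG00000286236, for which no function is given. Its peak was 534 bp wide at percentile 84.5 in ATRA replicate 1 and 515 bp wide at percentile 73.7 in ATRA replicate 2, without a peak in either control library. Of the 4 regions with peaks in both ATRA libraries and no control peak, it had the widest peak and the highest percentile in each ATRA library.

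Region 4, chr19:52281132-52281510, is 379 bp long and lies 16888 bp past the start of FPR2 in DNA that belongs to no canonical transcript. A long transcript of FPR1 that begins beyond FPR2 runs through it as an intron. Its peak was 249 bp wide at percentile 29.0 in ATRA replicate 1 and 379 bp wide at percentile 51.3 in ATRA replicate 2, and neither control library had one. The libraries of the ATRA group differed more in width here than in any other shared region, by a ratio of 1.52.

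Region 5, chr19:52286602-52286988, is 387 bp long and lies at -11615 bp from the start of FPR3, before the gene, in the same FPR1 intron. Its peak was 266 bp wide at percentile 59.5 in ATRA replicate 1 and 305 bp wide at percentile 74.3 in ATRA replicate 2. Control replicate 2 also had a peak there, 355 bp wide at percentile 83.8, and control replicate 1 had none. The rule calls it ATRA-specific because only 1 control library had it, but the percentile and the width in that library were above those of both ATRA libraries. Peaks of both ATRA libraries and control replicate 2, but not control replicate 1, were found in 4.86% of all regions. Region 5 therefore does not separate the groups.

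Region 6, chr19:52325660-52325966, is 307 bp long, lies in intron 1 of FPR3, 27403 bp past its start, and had a peak in ATRA replicate 1 alone, at percentile 47.0. Regions of this kind were 3.79% of all. Region 7, chr19:52333596-52333860, is 265 bp long and begins 4153 bp past the end of FPR3, where a long transcript of ZNF577 has an intron. Its peak was 255 bp wide at percentile 16.9 in ATRA replicate 1 and 241 bp wide at percentile 5.42 in ATRA replicate 2, without a control peak. It was the weakest of the ATRA-specific regions in both ATRA libraries.

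**Figure D2:**
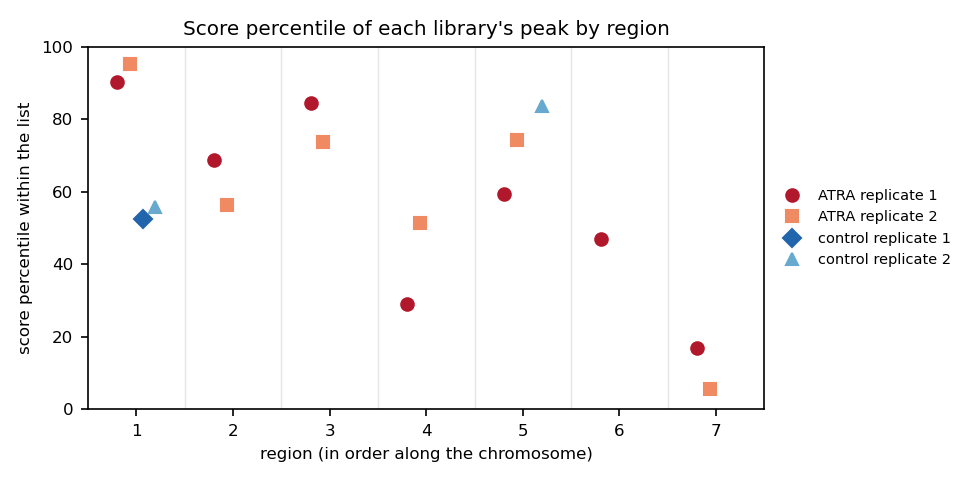
Score percentile (0 to 100, within the list of its own library) of the peak in each region; each symbol is 1 library, and a missing symbol means no peak. Where control replicate 1 has more than 1 peak, in region 1, the better one is shown. In region 1 both ATRA symbols lie above 90 and both control symbols below 56, while in region 5 control replicate 2 is the highest.

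**Figure D3:**
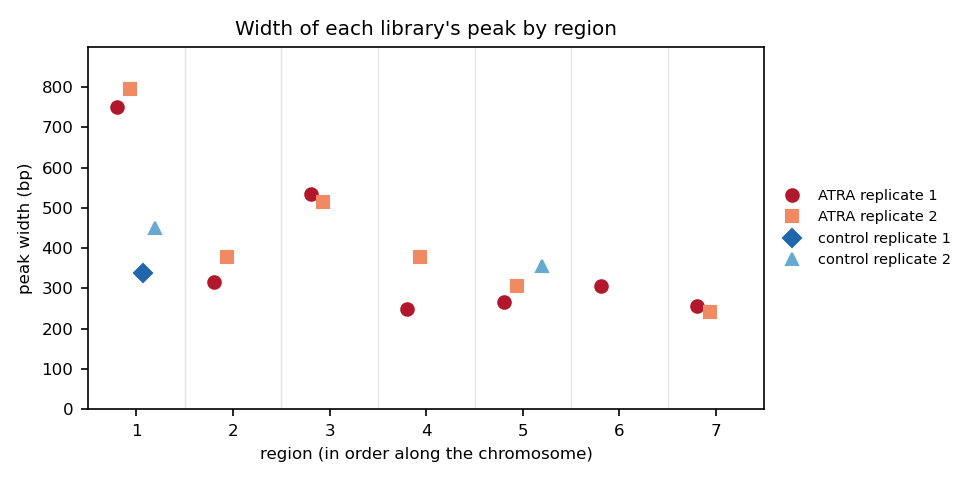
Width in bp of the same peaks, by region and library, with the better peak of control replicate 1 in region 1. Regions 1 and 3 have the widest ATRA peaks, from 515 to 796 bp, and the other ATRA peaks are 241 to 379 bp wide.

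Regions 2, 3, 4 and 7 had peaks in both ATRA libraries and in neither control library. Of the convincing ATRA peaks of all lists, 18.5% were of this kind, as were 8.94% of all regions. Regions with peaks in both control libraries and in neither ATRA library made up 3.37% of all, and the window had 0. Within the 6 regions that both ATRA libraries shared, the peaks covered the same bases for 65.7% to 87.2% of their joint length, lowest in region 4 and highest in region 7. The centres of the paired peaks were 17 to 83 bp apart.

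The ATRA libraries had 7 and 6 peaks in the window and the control libraries 2 each. How many other windows of this length show the same order was not counted. The mean was 6.5 ± 0.707 against 2.0 ± 0.0 peaks (SD, n = 2 each; difference 4.5, exact two-sided permutation p = 0.33). Of the window, peaks of ATRA replicates 1 and 2 covered 2676 bp and 2613 bp, and peaks of control replicates 1 and 2 covered 561 bp and 805 bp. The means were 2640 ± 44.5 bp and 683 ± 173 bp, a difference of 1961.5 bp (exact two-sided permutation p = 0.33, again the smallest possible). Relative to 1000 peaks of its own list, the window held 0.161 and 0.0944 peaks in the ATRA libraries and 0.0475 and 0.0436 in the controls. ATRA replicate 1, whose list was close in length to those of the controls, had the highest of these values. Of its peaks, that of region 6 was in no other library. The read depth behind each list is unknown, and its part in these values was not tested.

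Regions 2 to 5 follow each other with gaps of 6.5, 6.1 and 5.1 kb, from the first intron of FPR2 to the space before FPR3, within 19.4 kb. The next regions are 59.7 kb away on the FPR1 side and 38.7 kb away on the FPR3 side. Region 5 counts in this run by the rule, although control replicate 2 also had a peak there. Of all ATRA-specific peaks, 0.199% began such a run of 4 within the same length, a measure chosen after the run was seen. When the genome was divided into segments as long as the window, 0.863% of the 14482 segments with a region held at least 5 ATRA-specific and 0 control-specific peaks. These shares describe the genome around the window and are no test, since the window was chosen with earlier results of these data known.

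Counted by gene, within 50 kb of the full gene record with all its transcripts, which reaches from 52248425 to 52307368 for FPR1 and begins at 52255279 for FPR2, there were 5 ATRA-specific peaks for FPR1, 4 for FPR2 and 5 for FPR3, and 0 control-specific peaks for each. The shared peak, region 1, was within 50 kb of the records of FPR1 and FPR2. Within 50 kb of the canonical transcripts alone, the ATRA-specific peaks were 4, 4 and 5, and region 1 counted for FPR1 only. Since the genes are neighbours, they count largely the same peaks and are not 3 separate observations. Region 5, which had a peak in control replicate 2, is among the ATRA-specific peaks counted for each receptor gene. Counts by gene with any control peak disallowed are not given. By the same rule, at least 4 ATRA-specific and 0 control-specific peaks were found for 3.91% of the 18527 protein-coding genes with a convincing peak within 50 kb.

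The receptor genes arose by duplication, and the DNA between them holds copies of some regions. A copy was an alignment of at least 100 columns to the whole genome (blastn), and all copies found were inside the window. Region 2 aligned to chr19:52323356-52323742 in the canonical transcript of FPR3, 24.9 kb past its start, with 71.5% identity over 390 columns. Region 3 aligned to chr19:52330807-52331305, 1.4 kb past the end of FPR3, with 75.2% identity over 516 columns, and to chr19:52306420-52306887 inside FPR3 with 71.3% over 484 columns. None of these 3 copies had a peak in any of the 4 libraries. The parts that align to the middle of regions 2 and 3 are shown because the regions beside FPR2 were open with ATRA, while the related DNA beside FPR3 had no called peak.
copy of region 2, chr19:52323450-52323656, within FPR3: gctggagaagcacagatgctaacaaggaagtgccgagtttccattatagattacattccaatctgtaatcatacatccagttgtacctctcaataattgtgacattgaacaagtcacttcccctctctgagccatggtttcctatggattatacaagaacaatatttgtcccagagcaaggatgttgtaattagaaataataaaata
copy of region 3, chr19:52330927-52331114, past the end of FPR3: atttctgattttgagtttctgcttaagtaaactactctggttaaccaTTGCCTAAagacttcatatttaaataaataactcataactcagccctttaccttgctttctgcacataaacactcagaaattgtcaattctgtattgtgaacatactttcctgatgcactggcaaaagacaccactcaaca

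The copy of region 2 does not hold the TGATAA of region 2, and the printed copy of region 3 holds a match to the CEBP letters (capitals) that the middle of region 3 and its other copy lack. Region 6, within FPR3, in turn aligned to chr19:52270864-52271139 in FPR2 with 71.2% identity over 299 columns, and this copy had no peak either. Regions 5 and 7 are copies of each other, with 81.7% identity over 367 columns, and both had peaks in both ATRA libraries. The PU.1 letters ACTTCCTC are in both, while the GATA letters TTATCA of region 7 are not in the middle of region 5. Their levels were unlike: region 5 stood at percentiles 59.5 and 74.3 with ATRA, and region 7 at 16.9 and 5.42. Control replicate 2 had a peak in region 5 only. Regions 1 and 4 had no copy of that length. How reads that match several places were treated is not given, and its part in these values was not tested.

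**Figure D4:**
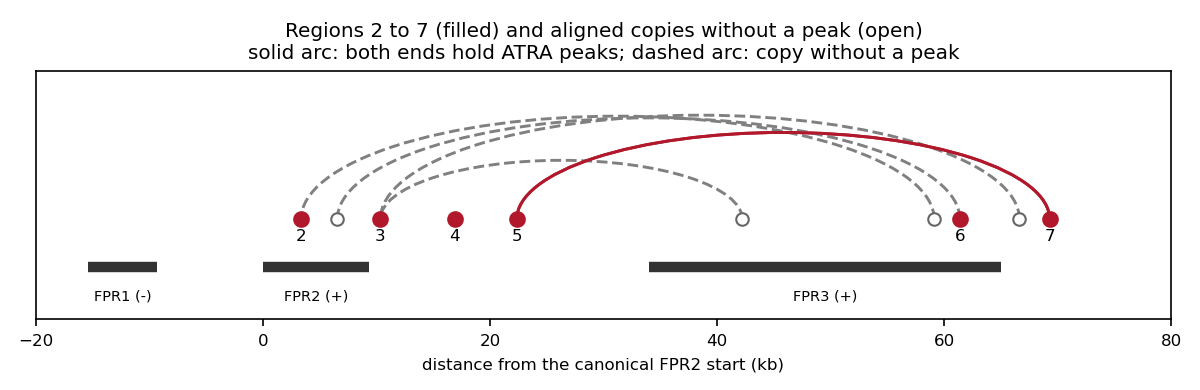
Regions 2 to 7 (filled circles) and the aligned copies that had no peak in any library (open circles), by distance in kb from the canonical start of FPR2; bars below are the receptor genes. Dashed arcs join a region to a copy without a peak and the solid arc joins regions 5 and 7, both of which had ATRA peaks; arc height has no meaning.

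Genes of the receptors' pathway were counted in the same way, from a list of 33 genes arranged by role. Of these, 25 (75.8%) had at least 1 ATRA-specific peak within 50 kb and 16 (48.5%) at least 1 control-specific peak, against 70.2% and 42.4% of all protein-coding genes with a convincing peak. Both shares were close to the background. At least 4 ATRA-specific and 0 control-specific peaks, as each receptor gene had, were found for 4 genes of the list (12.1%), against 3.91% of all protein-coding genes. For the receptor genes this count includes region 5, which had a peak in control replicate 2.

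Among the genes of ligands and their precursors, CAMP, which encodes the precursor of LL-37, and CTSG, the neutrophil protease cathepsin G, had 1 ATRA-specific and 0 control-specific peaks each. SAA1, serum amyloid A, had 0 and 2, and ANXA1, annexin A1, had 0 of either. Among 8 other chemoattractant receptors, peaks specific to ATRA lay near 5 (62.5%) and peaks specific to the control near 4 (50.0%). The shares of all protein-coding genes with a convincing peak were 70.2% and 42.4%. C5AR1 lies beside C5AR2 and CXCR1 beside CXCR2, so the members of each pair can count the same peaks. The 8 genes are thus not 8 separate observations. The receptors for complement fragments had only ATRA-specific ones, 2 for C5AR1, 3 for its neighbour C5AR2 and 3 for C3AR1. The neighbouring interleukin-8 receptors CXCR1 and CXCR2 had 1 control-specific peak each and 0 of the other kind. The platelet-activating factor receptor PTAFR and the leukotriene B4 receptor LTB4R had 1 of each kind, and the chemerin receptor CMKLR1 had none.

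Downstream, all 5 G protein genes, all 7 effector genes and all 3 kinase genes had at least 1 ATRA-specific peak. Of these, 2, 4 and 2 also had a control-specific peak. Among all protein-coding genes with a convincing peak, the shares were 70.2% and 42.4%. The counts were not adjusted for gene length or for the number of peaks near a gene. PREX1, which encodes an activator of Rac that responds to beta-gamma subunits and phosphoinositides, had 6 ATRA-specific and 0 control-specific peaks, the most of the list. PIK3CG and PIK3R5, the catalytic and a regulatory subunit of phosphoinositide 3-kinase gamma, had 4 and 0 each. GNB1, a G protein beta subunit, and VAV1, a signalling protein of blood cells, had 4 and 1 each. Of the 6 desensitisation genes, 3 had an ATRA-specific peak (GRK6, ARRB1 and ARRB2) and 3 a control-specific peak (GRK2, GRK6 and RGS2). Each is 50.0%, against the same 70.2% and 42.4%. ARRB1, which encodes a beta-arrestin that binds receptors after activation, had 5 and 0. In the other direction, DOCK2, another Rac activator, had the most control-specific peaks, 3, beside 2 ATRA-specific ones. GNAI3, a Gi alpha subunit, had 1 ATRA-specific and 2 control-specific peaks, the Src family kinase gene LYN had 3 and 2, and the protein kinase C delta gene PRKCD had 4 and 2.

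**Figure D5:**
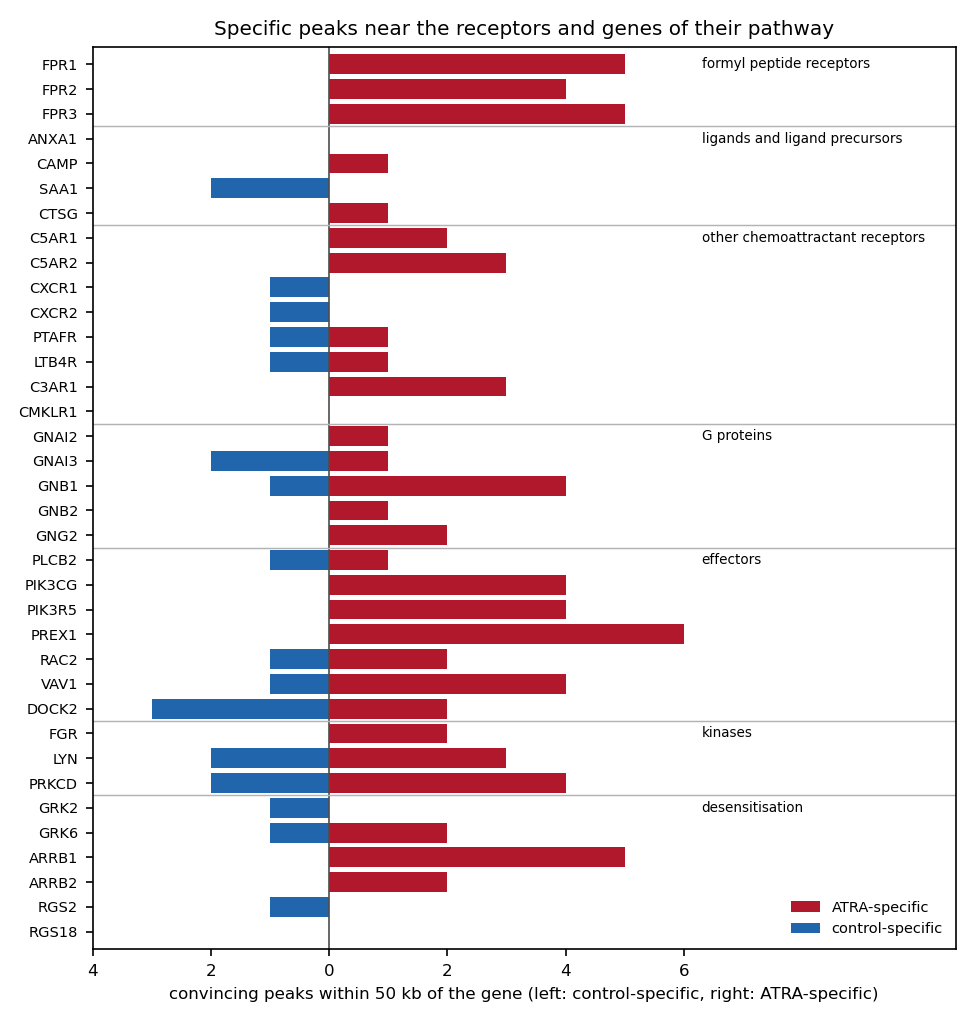
Number of ATRA-specific (bars to the right) and control-specific (bars to the left) convincing peaks within 50 kb of each receptor gene and each gene of its pathway, grouped by role. The receptors have 4 or 5 to the right and none to the left; PREX1 has the longest bar to the right, 6, and DOCK2 the longest to the left, 3.

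All values come from called peaks, with 2 libraries a group and no read counts, so a peak missing from a list gives no level for that library. In cultures like these, a site open in fewer cells and a site less open in every cell cannot be told apart.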

How the data were processed

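Peak lists of 4 ATAC-seq libraries were used. The authors trimmed adapters, aligned reads to hg19 (GRCh37) and called peaks per library with default settings. The submitters' processing notes name cutadapt, Bowtie2, MACS2 and MACS; versions, duplicate removal, the Tn5 read shift, excluded regions and multi-mapping reads are not given in the sources used here. Each deposited list holds position and a score (50 to 3100) of unstated scale, so scores were ranked within a list. No read counts were used and depth is unknown. Peaks were joined by 1 bp overlap (bedtools 2.31.1), and genes came from GENCODE release 44 on GRCh37. Levels were compared by exact permutation over libraries. The peak classes and the permutation tests were tried on simulated data with known answers, and the motif search on planted motifs. Copies were aligned with blastn 2.17.0 (e-value 1e-10). Named were the 3 receptor genes, genes beside a region, and pathway genes with the most ATRA-specific or control-specific peaks; the other ligands, receptors and desensitisation genes were added afterwards. A gene of the pathway list as first written was left out of every count and is not reported here; list genes without values in the text are plotted. The members and lists were chosen with earlier results of these data known. Alternatives covered overlap, score, list length, width, flank, the specificity rule, all peaks of a library in a region, and each replicate left out. Marker promoters were checked for peaks.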

Additional observations from a re-analysis of the deposited data

How the results depend on the processing

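The window kept 0 control-specific peaks under every alternative run. ATRA-specific peaks numbered 3 when only the better 0.5 of each list by score was used, where regions 4 and 7 were lost. They numbered 4 with 42081 peaks per library (region 7 lost) or with any control peak disallowed (region 5 lost), 7 with flanks of 100 kb, and 4 to 6 when a library was left out. The shared peaks numbered 0 with flanks of 20 kb, which leave out region 1, 2 with flanks of 100 kb, and 1 to 2 when a library was left out, with 2 without control replicate 1, where region 5 counts as shared. Without a library the ATRA minus control difference was 4.0 to 5.0 peaks, 1839.5 to 2083.5 bp, 10.1 to 41.3 percentile units and 126.8 to 435.0 bp of width. The lowest percentile and width values, 10.1 (exact permutation p = 0.667) and 126.8 bp, came without control replicate 1 and are medians over regions 1 and 5, since region 5 then counts as shared; region 1 alone differed by 37.1 units and 323.0 bp there, and by 36.2 to 41.3 units when any library was left out. With peaks set to 200 bp the covered bases differed by 900 bp, and with flanks of 100 kb the differences were 7.5 peaks and 3442.5 bp; with the better 0.5 of each list the difference was 3.0 peaks. With replicate numbers as pairs, a replicate block, the differences stayed 4.5 peaks, 1961.5 bp, 38.8 percentile units and 379.0 bp (exact permutation p = 0.5 each, the smallest possible). These numbers only name the libraries. Every direction was kept. The unknown read depth limits what a missing peak can show.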

Other observations

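Within 100 kb of the gene records, which is 50 kb outside the window on each side, 2 more sites had peaks in both ATRA libraries and in at most 1 control library. The site at chr19:52160206-52160496, 37.9 kb outside, stood at percentiles 27.5 and 45.8 in ATRA replicates 1 and 2 and had no control peak. The site at chr19:52154746-52155163, 43.3 kb outside, stood at 72.0 and 59.3 with ATRA and 34.1 in control replicate 2, with no peak in control replicate 1. On the other side, a site across the start of the zinc finger gene ZNF649 and its intron 1, chr19:52407743-52408578, had peaks in all 4 libraries, at percentiles 85.9 and 88.5 with ATRA and 75.7 and 65.0 without. These sites were chosen for their place beside the window, after its values were known.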
